A study of Mus musculus with 20 samples.

Results

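Ribosome biogenesis is the making of the small (40S) and large (60S) ribosomal subunits, and 56 mouse genes for it were followed here in brown adipose tissue (BAT). The members were taken by symbol from a list of RNA polymerase I and ribosome assembly genes, and each was matched to 1 of the 55471 gene identifiers in the deposited count tables. All 56 passed the filter on low counts, as did 15233 genes in all. No threshold on a measured value entered the choice, but the list was proposed with results of these libraries across both genotypes and temperatures already known. Counts over the members are therefore a description, set beside the same count over all tested genes, and no test was made over the list.

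Ribosomal RNA is transcribed in the nucleolus by RNA polymerase I, which is brought to the ribosomal DNA by Ubtf, an architectural factor, and Rrn3, its initiation factor. The long precursor is modified by small nucleolar ribonucleoproteins (snoRNPs), in which Fbl methylates ribose and Dkc1 makes pseudouridine, and is cut and folded in the small subunit (SSU) processome, also called the 90S particle. Separate sets of factors then finish the 40S and the 60S subunit and carry them out of the nucleus. Brown fat burns fuel for heat through Ucp1, and acute cold is its standard stimulus.

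Poly(A) RNA was sequenced from BAT of mice labelled CEBPB WT or adipose-specific CEBPB KO, kept at room temperature (RT) or given 4 h of cold stress, with 5 libraries in each of the 4 groups, called WT_RT, WT_cold, KO_RT and KO_cold below. Cebpb encodes C/EBP beta, a transcription factor of adipocytes. The labels name neither the Cre driver of the knockout nor the strain, sex or age of the mice, and they do not say that the libraries came from separate animals. P-values therefore measure the spread between these libraries, which may be technical. Libraries held 27.07 to 55.18 M gene counts. Gene positions are those of GENCODE M21 (GRCm38). Levels are CPM, counts per 1 M counts of the library after TMM scaling, as mean ± SD over 5 libraries. A gene was called where its adjusted p from edgeR's quasi-likelihood test over all 15233 genes was under 0.05, and a log2 change has its standard error (SE).

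Cebpb was at 105 ± 19.9 CPM in WT_RT and 143 ± 22.4 CPM in WT_cold, against 0.564 ± 0.253 CPM in KO_RT and 1.92 ± 0.277 CPM in KO_cold. Brown adipocyte markers summed to between 15598 and 26454 CPM in every library. Of these 10 markers, 2 rose in the cold in each genotype, Ucp1 and Elovl3, while 4 fell in WT and 5 in KO. Skeletal muscle RNA moved with temperature: in WT the 12 markers summed to 1.37 to 1342 CPM at RT (median 85.4) and 0.826 to 33.5 CPM in the cold (median 1.86), and in KO to 28.8 to 575 CPM at RT (median 239) and 0.627 to 1.33 CPM in the cold (median 0.959). All 12 fell in both cold comparisons. Of the other marker lists, 4 of 7 lymphocyte genes fell in WT and 3 in KO, and 1 of 8 macrophage genes rose in WT and 2 in KO. Endothelial markers split, with 3 higher and 2 lower of 6 in WT, and 4 higher and 2 lower in KO. Of 6 smooth muscle and pericyte markers, 2 fell in WT, and in KO 2 rose and 1 fell. Of 5 Schwann cell markers, 1 rose and 1 fell in each genotype. Of 5 erythrocyte markers, edgeR called 0 in either cold comparison and DESeq2 called 1 in WT. Their sum reached 1154 CPM in WT_cold (median 310). Their mean log2 CPM was 6.71 in WT_cold replicate 5, where the group median was 4.80. Among all tested genes, 26.2% rose and 30.2% fell in WT, and 27.5% and 31.7% in KO. Of 6 fibroblast and progenitor markers, 0 were called in WT (1 at an unadjusted p under 0.05, 1 with DESeq2) and 1 rose in KO. Of 6 tested markers of proliferating cells, 0 were called by edgeR in either cold comparison, with 1 in WT and 0 in KO at an unadjusted p under 0.05, and the same counts called with DESeq2.

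The members differed widely in level. Per kilobase of exon, averaged over the 4 groups, Nop10 (43.4 CPM per kb), a small H/ACA snoRNP protein, and Npm1 (39.1 CPM per kb), the nucleolar chaperone nucleophosmin, were the highest. They were followed by Ncl (21.2 CPM per kb), which is nucleolin, and Rrn3 (17.1 CPM per kb). Rrp1b (1.03 CPM per kb), a 60S factor, and Polr1e (1.31 CPM per kb), a polymerase I subunit, were the lowest. The length used joins the exons of all annotated transcripts of a gene, 10188 bases for Ncl, so this order depends on the annotation. Without division by length, Ncl had the highest mean CPM of the members in every group, from 161 CPM in WT_RT to 282 CPM in KO_cold. Reads that mapped to several places were not counted, so genes with processed copies, such as Npm1, may be undercounted. The median coefficient of variation of the members between libraries in WT was 7.98% at RT and 9.45% in the cold, and in KO 7.61% at RT and 6.63% in the cold, where all tested genes had medians of 12.3%, 13.5%, 11.5% and 12.2% in that order; tested genes were not matched to the members' levels.

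The genes lie on 19 chromosomes, with at most 7 on any of them. Small nucleolar RNA genes, whose RNAs guide the modification of ribosomal RNA, lie inside 7 members: 5 in Nop56, 4 in Nop58, 3 each in Ncl, Gnl3 and Wdr43, 2 in Tsr1 and 1 in Dkc1, or 21 in all. None of the 56 overlapped a tested gene on its own strand. On the opposite strand 13 did, and counting both strands together ended no call of a member.

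Promoter sequence was taken from RefSeq (GRCm38.p6), as windows of 250 bases before to 50 after each start. The table held 57 windows for 47 of the 56 members; Bop1, Fbl, Gnl2, Mak16, Nol6, Npm1, Rrp12, Rrs1 and Utp6 were not matched. Exact letters were searched on both strands, and a gene counts once if any of its windows held them. The E-box CACGTG, the core bound by MYC and its relatives, was in 10 of 47 members (21.3%) and in 11.5% of the 10883 tested genes with a window. CCGGAAGT, an ETS-type site, was in 13 members (27.7%) and in 8.69% of tested genes. The GC box GGGCGG was in 34 members (72.3%) and in 66.9% of tested genes. The C/EBP palindrome TTGCGCAA was in 1 member, Bms1 (2.13%, against 0.331%), and the cyclic AMP response element TGACGTCA in 1 member (2.13%, against 3.44%). TATAAA was in 2 members (4.26%, against 9.18%), and the NRF1 palindrome in 0 members, against 2.23% of tested genes. A match describes the letters in a window and no more. The median GC content of the windows was 59.7% for the members and 60.3% for tested genes.

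The 100 bases before the start are shown for some members, 5′ to 3′ on the gene's strand, with matches to the searched letters in capitals. No matches overlapped in these stretches. The members shown are chosen examples, and whether the letters go with the cold response was not tested. Gnl3, Ncl, Gtpbp4, Imp4, Rrp1b and Ubtf, not shown, also rose in the cold and held no E-box in this stretch. The first set shows an E-box in genes that rose in the cold: Nop2 at chr6:125131783-125131882 (plus strand), Rrn3 at chr16:13780599-13780698 (plus strand) and Utp18 at chr11:93885767-93885866 (minus strand), the last also with a GC box.
Nop2: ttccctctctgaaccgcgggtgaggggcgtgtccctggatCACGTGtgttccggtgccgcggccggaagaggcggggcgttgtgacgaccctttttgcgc
Rrn3: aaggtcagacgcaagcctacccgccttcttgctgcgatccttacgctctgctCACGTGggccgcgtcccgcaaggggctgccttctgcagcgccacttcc
Utp18: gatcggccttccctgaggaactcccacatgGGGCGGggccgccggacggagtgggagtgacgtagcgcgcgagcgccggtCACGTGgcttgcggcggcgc
Ltv1 at chr10:13193138-13193237 (minus strand) shows the ETS-type letters on each strand, and Nolc1 at chr19:46075747-46075846 (plus strand) shows the GC box on each strand.
Ltv1: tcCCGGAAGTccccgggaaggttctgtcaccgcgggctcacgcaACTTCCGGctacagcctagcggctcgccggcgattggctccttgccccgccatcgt
Nolc1: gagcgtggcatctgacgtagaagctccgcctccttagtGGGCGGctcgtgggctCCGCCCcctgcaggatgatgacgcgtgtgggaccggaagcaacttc
The last set held none of the searched letters in this stretch. It comprises Polr1a at chr6:71908953-71909052 (plus strand), which rose, Dkc1 at chrX:75095754-75095853 (plus strand) and Imp3 at chr9:56937400-56937499 (plus strand), which fell, and Nop16 at chr13:54590075-54590174 (minus strand), whose cold response differed between the genotypes.
Polr1a: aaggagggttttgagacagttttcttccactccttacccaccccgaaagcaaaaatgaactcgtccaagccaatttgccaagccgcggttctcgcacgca
Dkc1: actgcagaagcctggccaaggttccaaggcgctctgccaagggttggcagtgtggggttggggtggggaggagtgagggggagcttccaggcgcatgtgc
Imp3: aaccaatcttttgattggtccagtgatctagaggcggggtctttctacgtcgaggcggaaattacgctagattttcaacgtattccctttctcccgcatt
Nop16: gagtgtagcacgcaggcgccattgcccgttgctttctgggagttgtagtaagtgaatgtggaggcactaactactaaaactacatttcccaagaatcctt

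Most ribosome biogenesis genes rose within 4 h of cold, in both genotypes. In WT, 46 of the 56 members rose and 2 fell, against 26.2% of all tested genes called higher and 30.2% called lower. In KO, 47 rose and 2 fell, against 27.5% and 31.7%. The 46 genes that rose in WT also rose in KO, where 22.9% of tested genes were called higher in both. The median log2 change of the members was 0.52 in WT and 0.62 in KO, where the median over all tested genes was -0.05 in each. In 38 members every WT_cold library was above every WT_RT library (18.9% of tested genes), and in 46 members the same held in KO (21.6%). In whole tissue, a change in the make-up of cells and a change in RNA per cell cannot be told apart.

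**Figure D1:**
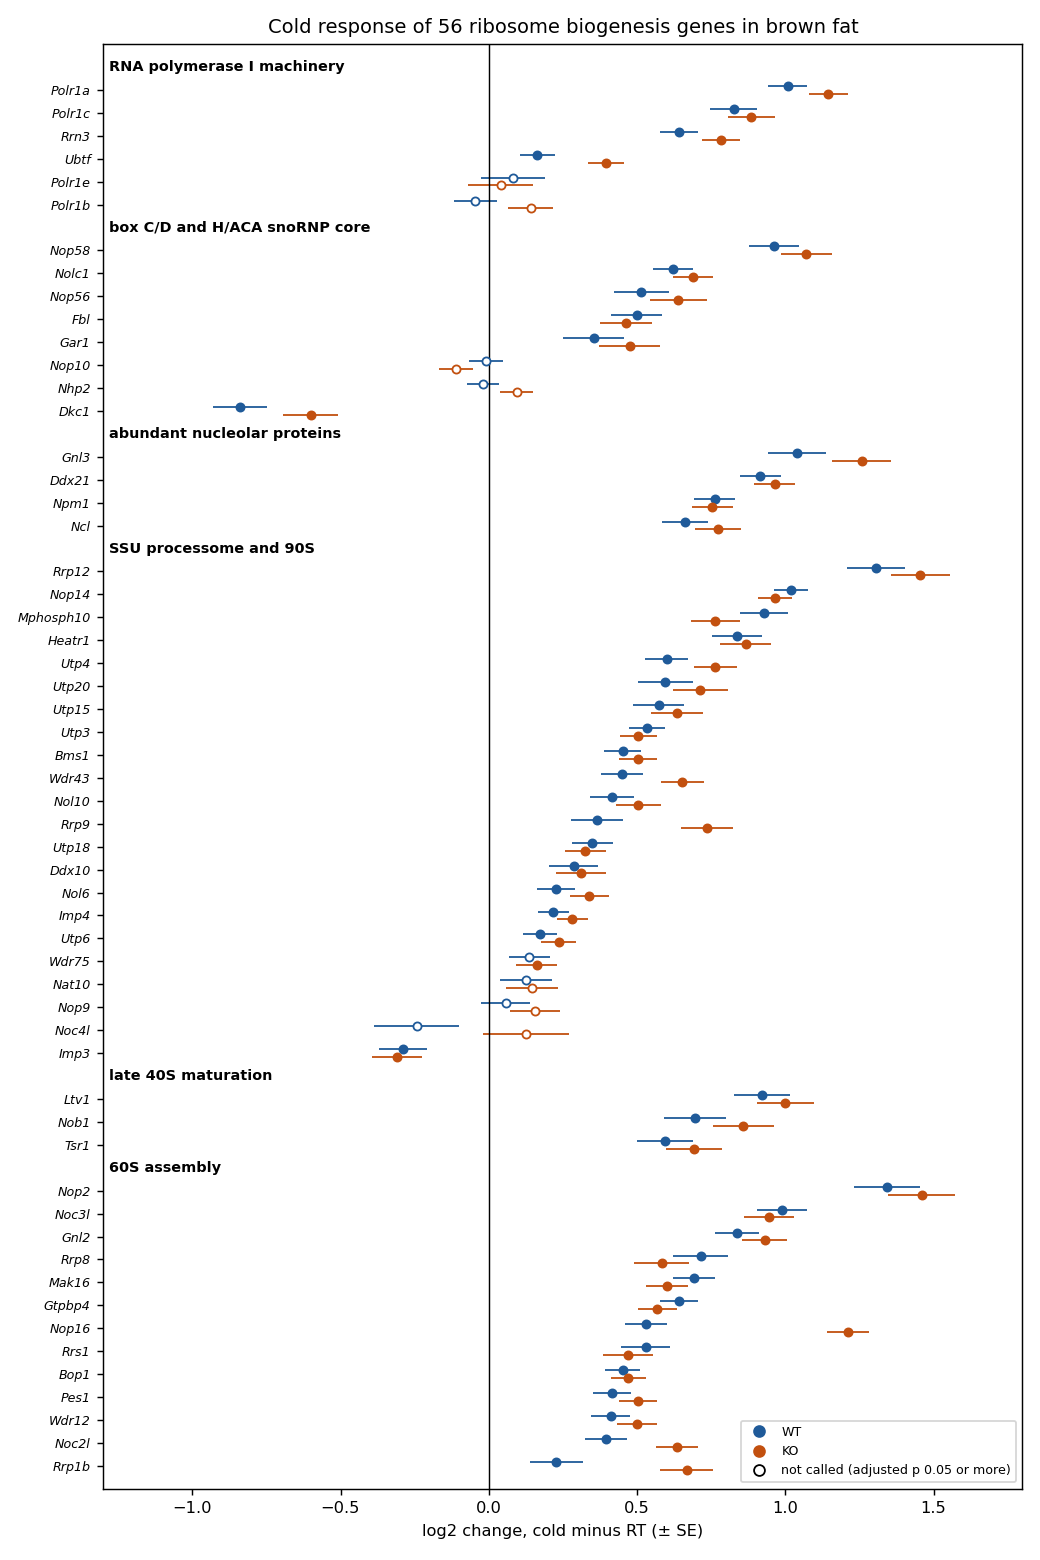
Log2 change in the cold (x axis, cold minus RT, ± SE) of each of the 56 members (y axis, grouped by role) in WT (blue) and KO (orange), with open points where the gene was not called. Most points lie to the right of 0 in both genotypes, led by Nop2 and Rrp12, while Dkc1 and Imp3 lie to the left.

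The mean log2 CPM of the 56 members went from 4.35 ± 0.06 at RT to 4.85 ± 0.08 in the cold in WT, and from 4.31 ± 0.06 to 4.90 ± 0.03 in KO. Their summed level moved from 1484 ± 72.0 to 2206 ± 158 CPM in WT and from 1448 ± 58.1 to 2283 ± 43.4 CPM in KO. No cold library reached down to an RT library: the RT means ran from 4.25 to 4.44 and the cold means from 4.73 to 4.95. WT_RT replicate 4 had the lowest mean log2 CPM of the 12 muscle markers in its group (-3.40) and a member mean of 4.44. WT_cold replicate 1 had the highest muscle mean in its group (0.74) and a member mean of 4.81. With the muscle mean as a term in the fit, 42 members rose in WT and 44 in KO, with medians of 0.49 and 0.53. On the first principal component of all tested genes, 2 WT libraries lay nearest the other temperature: WT_RT replicate 4 at -23.4, with the other RT libraries from -56.3 to -39.5, and WT_cold replicate 5 at 26.6, with the other cold libraries from 37.6 to 51.8. Without these 2 libraries, 48 members rose in each genotype. WT_cold replicate 5 also had the highest erythrocyte marker mean of all libraries, and the part this played was not tested.

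**Figure D2:**
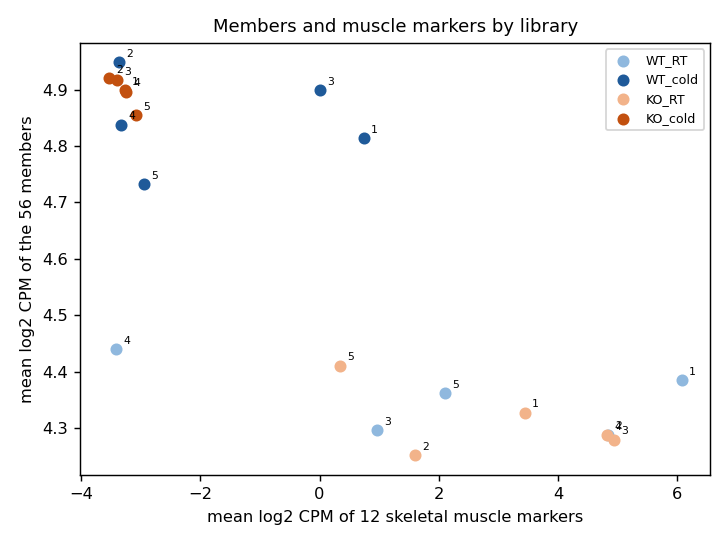
Mean log2 CPM of the 56 members (y axis) against mean log2 CPM of 12 skeletal muscle markers (x axis) in the 20 libraries, numbered by replicate and coloured by group. Every cold library lies above every RT library on the y axis; WT_RT replicate 4 (4.44) is the highest at RT and WT_cold replicate 5 (4.73) the lowest in the cold.

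RNA polymerase I genes rose in 4 of 6 cases in each genotype, with a median log2 change of 0.40 in WT and 0.59 in KO. Polr1a (chromosome 6, 71909053 to 71984935) encodes the largest, catalytic subunit. In replicate order 1 to 5, which is kept throughout, it stood at 29.4, 28.97, 28.7, 33.4 and 31.1 CPM in WT_RT and 59.9, 64.9, 62.4, 63.2 and 54.6 CPM in WT_cold. In KO it stood at 29.2, 25.7, 28.2, 28.5 and 30.97 CPM at RT and 57.5, 67.01, 63.6, 69.1 and 58.4 CPM in the cold. The lowest cold library was far above the highest RT library in both genotypes, the log2 change being 1.01 ± 0.07 in WT (adjusted p = 1.47e-10) and 1.15 ± 0.07 in KO (adjusted p = 3.36e-11). Polr1c, a subunit shared with polymerase III, rose by 0.83 in WT and 0.89 in KO on the log2 scale.

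Rrn3 (chromosome 16, 13780708 to 13814839), whose promoter E-box is shown above, makes the polymerase competent to start. Its levels were 61.2, 55.5, 59.1, 56.98 and 65.2 CPM in WT_RT and 86.1, 98.8, 93.9, 96.1 and 90.5 CPM in WT_cold, then 51.8, 49.4, 51.8, 54.6 and 53.98 CPM in KO_RT and 99.8, 81.9, 83.5, 100.01 and 84.99 CPM in KO_cold. The groups did not overlap in either genotype, and the log2 changes were 0.64 ± 0.06 in WT (adjusted p = 2.83e-08) and 0.78 ± 0.06 in KO (adjusted p = 1.78e-09). Polr1b, the second-largest subunit, changed by -0.04 in WT and 0.14 in KO, and Polr1e by 0.08 and 0.04, none of them called. Ubtf, which rose by 0.16 in WT and 0.40 in KO, is described with the knockout.

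The snoRNP core was mixed. Of 8 genes, 5 rose and 1 fell in each genotype, with medians of 0.43 in WT and 0.47 in KO. The 3 proteins of the box C/D class, which guides methylation, all rose: Nop58 by 0.96 in WT and 1.07 in KO, Nop56 by 0.52 and 0.64, and Fbl, the methyltransferase, by 0.50 ± 0.09 (adjusted p = 4.23e-05) and 0.46 ± 0.09 (adjusted p = 9.79e-05). Fbl stood at 8.88, 9.79, 10.2, 9.93 and 10 CPM in WT_RT and 13.2, 13.1, 16.3, 12.98 and 13.5 CPM in WT_cold, then 11.4, 10.3, 10.8, 8.71 and 12.1 CPM in KO_RT and 15.2, 16.4, 14.4, 12.9 and 14.7 CPM in KO_cold. WT_cold replicate 3 was above the rest of its group, and cold and RT libraries did not overlap in either genotype. Nolc1, a chaperone of snoRNPs, stood at 41.4, 34.9, 38.1, 39.2 and 43.6 CPM in WT_RT and 53.9, 64.8, 63.7, 61.6 and 59.5 CPM in WT_cold, then 34.4, 37.8, 35.8, 39.2 and 38.98 CPM in KO_RT and 52.9, 61.7, 63.2, 62.5 and 59.8 CPM in KO_cold. Cold libraries were higher without overlap, and it rose by 0.62 ± 0.07 in WT (adjusted p = 7.83e-08) and 0.69 ± 0.07 in KO (adjusted p = 1.72e-08). Of the 4 proteins of the H/ACA class, which guides pseudouridylation, Gar1 rose by 0.35 in WT and 0.48 in KO. Nop10 (-0.01 and -0.11) and Nhp2 (-0.02 and 0.09) were not called.

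Dkc1 (chromosome X, 75095854 to 75109777), the pseudouridine synthase of that class, fell. It stood at 34.9, 32.3, 35.3, 37.8 and 31.7 CPM in WT_RT and 20.4, 21.1, 17.9, 16.6 and 20.01 CPM in WT_cold. In KO the values were 30.1, 30.7, 28.7, 33.6 and 31.4 CPM at RT and 20.4, 20.6, 25.2, 20.3 and 15.6 CPM in the cold. Every cold library was below every RT library of its genotype, the log2 change being -0.84 ± 0.09 in WT (adjusted p = 1.21e-07) and -0.60 ± 0.09 in KO (adjusted p = 9.7e-06). The share of tested genes with all cold libraries lower was 19.3% in WT and 23.2% in KO.

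The 4 abundant nucleolar proteins all rose, with the highest medians among the roles, 0.84 in WT and 0.87 in KO. Gnl3 (chromosome 14, 31012433 to 31019152), the GTP-binding protein nucleostemin, had 24.99, 25.3, 24.3, 31.5 and 24.3 CPM in WT_RT and 53.5, 67.8, 54.5, 50.3 and 41.7 CPM in WT_cold. Its values were 27.6, 22.8, 24.5, 21.9 and 25.7 CPM in KO_RT and 60.6, 58.3, 55.9, 56.8 and 61.4 CPM in KO_cold. The groups did not overlap, although WT_RT replicate 4 stood above the other RT libraries, and the log2 changes were 1.04 ± 0.10 in WT (adjusted p = 1.5e-08) and 1.26 ± 0.10 in KO (adjusted p = 1.1e-09). Ddx21, a nucleolar RNA helicase, rose by 0.92 in WT and 0.96 in KO, and Npm1 by 0.76 and 0.75.

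Ncl (chromosome 1, 86344719 to 86359400) binds the nascent precursor and hosts 3 small nucleolar RNA genes. It had 152, 144, 153, 192 and 165 CPM in WT_RT and 242, 287, 278, 251 and 216 CPM in WT_cold. In KO it had 177, 159, 157, 161 and 170.0 CPM at RT and 289, 289, 287, 288 and 257 CPM in the cold. Cold libraries lay above RT libraries without overlap, with log2 changes of 0.66 ± 0.08 in WT (adjusted p = 3.01e-07) and 0.77 ± 0.08 in KO (adjusted p = 3.14e-08). Of the 7 members that host small nucleolar RNA genes, 6 rose in both genotypes and Dkc1 fell.

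**Figure D3:**
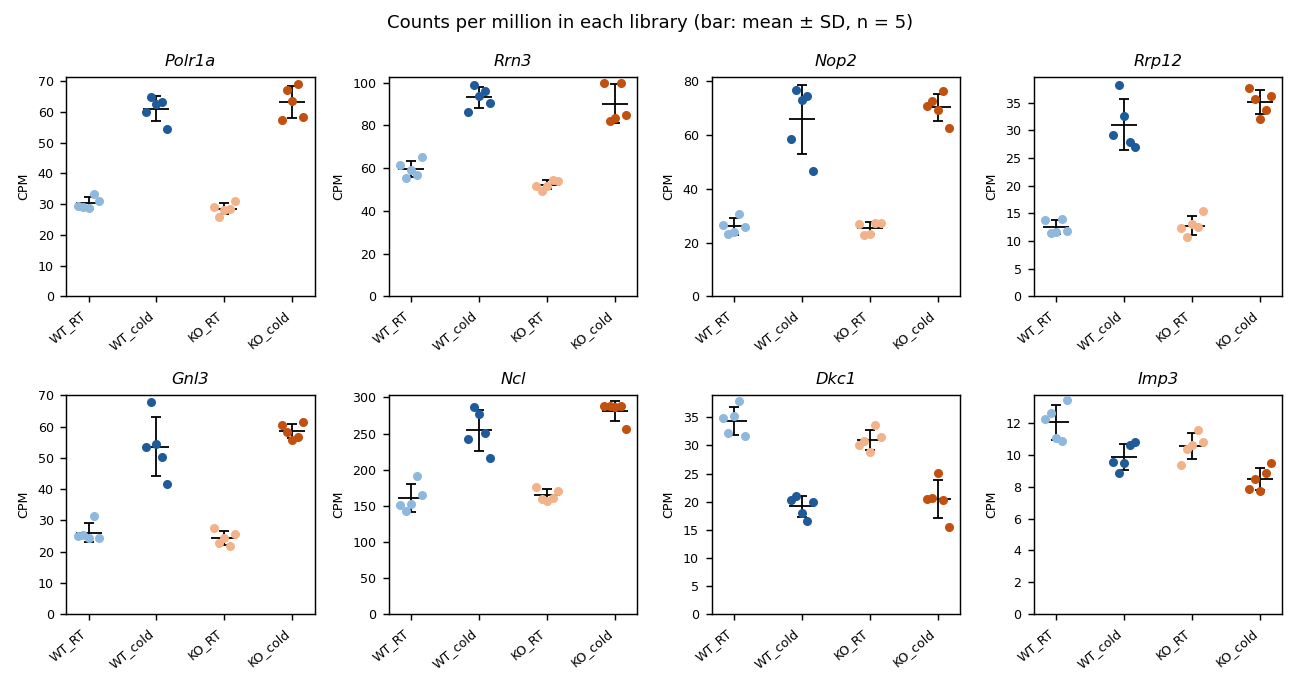
CPM in each library (points) with the mean ± SD over 5 libraries (bars) for 8 members in the 4 groups. Polr1a, Rrn3, Nop2, Rrp12, Gnl3 and Ncl are higher in the cold with no overlap in either genotype, while Dkc1 and Imp3 are lower, Imp3 with overlap in KO.

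The SSU processome was the largest role, with 22 genes, of which 17 rose and 1 fell in WT (median 0.39) and 18 rose and 1 fell in KO (median 0.50). Rrp12 (chromosome 19, 41862851 to 41896173), needed for export of pre-ribosomes, led them. It rose from 13.7, 11.4, 11.7, 13.9 and 11.9 CPM in WT_RT to 29.2, 38.3, 32.7, 27.9 and 27.1 CPM in WT_cold, and from 12.4, 10.7, 13.04, 12.5 and 15.4 CPM in KO_RT to 37.6, 35.7, 32.1, 33.7 and 36.2 CPM in KO_cold. Every cold library exceeded every RT library, with log2 changes of 1.31 ± 0.10 in WT (adjusted p = 7.23e-10) and 1.46 ± 0.10 in KO (adjusted p = 1.69e-10). Nop14 rose by 1.02 in WT and 0.96 in KO, Mphosph10 by 0.93 and 0.76, and Heatr1, which is also needed for polymerase I transcription, by 0.84 and 0.87.

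Imp3 and Imp4 encode partners of Mphosph10 in the same complex, yet their RNAs went opposite ways. Imp3 (chromosome 9, 56937475 to 56938398) had 12.3, 12.6, 11.02, 10.9 and 13.5 CPM in WT_RT and 9.55, 8.86, 9.49, 10.6 and 10.8 CPM in WT_cold, then 9.33, 10.4, 10.6, 11.6 and 10.8 CPM in KO_RT and 7.88, 8.51, 7.73, 8.84 and 9.46 CPM in KO_cold. Cold libraries were lower without overlap in WT, but the groups overlapped in KO. It fell by 0.29 in WT (adjusted p = 0.0046) and by 0.31 in KO (adjusted p = 0.00298) on the log2 scale, calls that were lost with the skeletal muscle mean in the fit (adjusted p = 0.0549 and 0.14). Imp4 stood at 41.98, 41.5, 39.6, 40.9 and 47.5 CPM in WT_RT and 48.4, 49.5, 47.9, 50.04 and 50.1 CPM in WT_cold, then 45.4, 39.2, 41.1, 40.9 and 42.3 CPM in KO_RT and 48.97, 51.1, 51.7, 53.2 and 49.2 CPM in KO_cold. Cold and RT libraries stood close but did not overlap, and it rose by 0.22 ± 0.05 in WT (adjusted p = 0.00118) and 0.28 ± 0.05 in KO (adjusted p = 8.25e-05). Nat10, the acetyltransferase of ribosomal RNA, changed by 0.13 in WT and 0.15 in KO, Nop9 by 0.06 and 0.16, and Noc4l by -0.24 and 0.13, none of them called. Without WT_RT replicate 4, Nat10 was called higher in WT (adjusted p = 0.0345). Wdr75 lay at the threshold, at 0.16 in KO (adjusted p = 0.0482, called) and 0.14 in WT (adjusted p = 0.0948, not called), with no called interaction (adjusted p = 0.968); without WT_cold replicate 5 it was called in WT as well (adjusted p = 0.0119).

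All 3 genes of late 40S maturation rose, with medians of 0.70 in WT and 0.86 in KO. Ltv1, a late assembly factor of the 40S subunit whose promoter is shown above, was at 20.3, 16, 17.4, 22.8 and 18.2 CPM in WT_RT and 35.5, 40.5, 39.2, 33.1 and 30.98 CPM in WT_cold. In KO it was at 18.1, 14.9, 17.95, 17.6 and 19.95 CPM at RT and 38.7, 37.1, 35.1, 33.03 and 33.1 CPM in the cold. The groups did not overlap, and the log2 changes were 0.92 ± 0.09 in WT (adjusted p = 4.31e-08) and 1.0 ± 0.10 in KO (adjusted p = 1.33e-08). Nob1, the nuclease that makes the final cut of 18S ribosomal RNA, rose by 0.70 in WT and 0.86 in KO, and Tsr1 by 0.59 and 0.69.

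Every one of the 13 members of 60S assembly rose in both genotypes, with medians of 0.53 in WT and 0.60 in KO. Nop2 (chromosome 6, 125131909 to 125144753), a methyltransferase of 28S ribosomal RNA, had the highest change of all 56 members in WT. It rose from 26.5, 23.2, 23.8, 30.8 and 25.6 CPM in WT_RT to 58.7, 76.6, 72.9, 74.7 and 46.8 CPM in WT_cold, and from 27.1, 22.8, 23.3, 27.4 and 27.2 CPM in KO_RT to 70.8, 72.5, 69.2, 76.6 and 62.6 CPM in KO_cold. Groups were far apart, with log2 changes of 1.34 ± 0.11 in WT (adjusted p = 3.62e-09) and 1.46 ± 0.11 in KO (adjusted p = 1.14e-09), a 2.54-fold and a 2.75-fold rise. The genes Bop1, Pes1 and Wdr12, which form the PeBoW complex, rose by 0.45, 0.42 and 0.41 in WT and by 0.47, 0.50 and 0.50 in KO. The GTPase Gtpbp4, which acts in the nucleolus and on export, stood at 45.5, 42.2, 43.1, 45.2 and 40.2 CPM in WT_RT and 61.4, 77.3, 67.96, 61.4 and 69.2 CPM in WT_cold, then 41.8, 37.98, 42.6, 41.4 and 44.4 CPM in KO_RT and 65.9, 59.01, 57.4, 60.9 and 65.5 CPM in KO_cold. Again no cold library was as low as an RT library, and it rose by 0.64 ± 0.06 in WT (adjusted p = 3.51e-08) and 0.57 ± 0.06 in KO (adjusted p = 1.64e-07). Gnl2, another GTPase, rose by 0.84 in WT and 0.93 in KO. So did Noc3l (0.99 and 0.94) and Noc2l (0.40 and 0.64).

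Lists of other genes of the pathway, none of them members, were counted in the same way. The shares over all tested genes were 26.2% higher and 30.2% lower in WT, and 27.5% and 31.7% in KO. Of 52 other 60S factors, 44 rose and 0 fell in WT (median 0.42) and 45 rose and 1 fell in KO (median 0.48); Mdn1, the giant ATPase of 60S release, rose by 0.99 in WT and 1.18 in KO. Of 34 other SSU and 40S factors, 20 rose and 2 fell in WT (0.27) and 23 rose and 1 fell in KO (0.30), with Utp14a at 0.88 and 0.89 and Rcl1, which fell, at -0.66 and -0.55. Of 9 other polymerase I genes, 7 rose and 0 fell in WT (0.44) and 8 rose and 1 fell in KO (0.49), led by Taf1d (1.04 and 0.94), a subunit of the promoter selectivity factor. Of 44 cytosolic ribosomal protein genes, 36 rose in WT (0.28) and 41 in KO (0.30), and 0 fell in either; Rps6 rose by 0.50 and 0.61. Ribosomal protein genes have many processed copies, so their counts are incomplete here.

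The next lists went both ways, as did all tested genes, of which 26.2% rose and 30.2% fell in WT, and 27.5% and 31.7% in KO. RNA polymerase III genes were mixed, with 10 higher and 7 lower of 22 in WT (median 0.09) and 12 higher and 7 lower in KO (0.20). Bdp1, a subunit of the initiation factor TFIIIB, rose by 0.95 in WT and 1.10 in KO, while Polr3g and Polr3gl, alternative versions of the same subunit, changed by -1.06 and -0.84 in WT and by -1.54 and -0.96 in KO. Of 5 subunits shared among the polymerases, 1 rose and 1 fell in WT (0.15) and 0 rose and 1 fell in KO (0.04), the latter being Polr2e (-0.23 and -0.44). Assembly factors of snoRNPs were split, with 4 higher and 4 lower of 11 in WT (0.01) and 4 higher and 3 lower in KO (0.17). Of 12 RNA exosome genes, 5 rose and 2 fell in each genotype (median 0.12 in each), and of 12 noncoding or other host genes of small nucleolar RNAs, 6 rose and 1 fell in WT (0.25) and 6 rose and 0 fell in KO (0.36). Snhg1, a host gene, rose by 0.77 in WT and 0.91 in KO.

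For the MYC network, whose best-known target programme is ribosome biogenesis, 4 of 12 genes rose and 6 fell in WT (median -0.32). In KO 3 rose and 5 fell (-0.18). Among all tested genes, 26.2% were called higher and 30.2% lower in WT, and 27.5% and 31.7% in KO. The list pools MYC family genes with their partners and antagonists, so these counts give no direction for MYC activity. Max, the shared partner, rose by 0.77 in WT and 0.55 in KO, and Mga by 0.72 and 0.82. Mlxipl, which encodes ChREBP, changed by -1.09 in WT and -1.39 in KO. Mycl had the largest fall of the list in WT (-1.69). Myc itself was low and was not called, at 5.01 CPM at RT and 3.99 CPM in the cold in WT and 3.74 and 4.13 CPM in KO (cold in WT -0.33, adjusted p = 0.176).

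**Figure D4:**
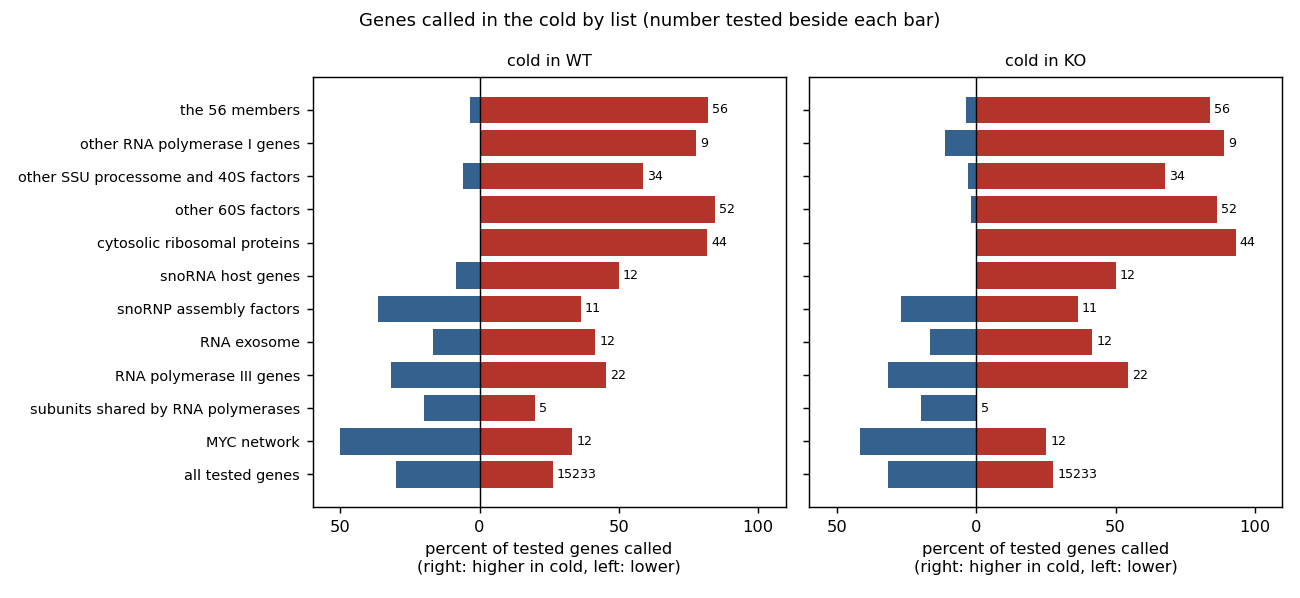
Percentage of the tested genes in each list called higher (right) or lower (left) in the cold (x axis), in WT and KO, with the number tested beside each bar. In WT the other 60S factors (44 of 52 higher), the 56 members (46) and the ribosomal proteins (36 of 44) reach farthest right, in KO ribosomal proteins (41 of 44) and other polymerase I genes (8 of 9) do, and polymerase III genes, snoRNP assembly factors and the MYC network extend to both sides.

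At room temperature, no member differed between KO and WT by the test. By edgeR 0 of 56 rose and 0 fell, where 2.7% of all tested genes were called in either direction (1.38% higher and 1.32% lower), and DESeq2 called 0 as well. At an unadjusted p under 0.05 there were 7 members, against 13.9% of tested genes. In 1 member every KO_RT library was above every WT_RT library and in 3 below, against 2.44% and 2.54% of tested genes. The log2 differences, KO minus WT, ran from -0.20 to 0.17, and the outermost bounds of their 95% intervals were -0.50 and 0.32. The smallest adjusted p was 0.139, for Rrn3 (-0.19). Outside the members, Ddx27 (-0.32) and Aatf (-0.34), both ribosome assembly factors, were lower in KO, and Mxi1 of the MYC network was higher (0.23).

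In the cold, 3 members were higher in KO than in WT and 0 were lower, where 7.7% of tested genes were called, 3.51% higher and 4.19% lower. DESeq2 also called 3, and 6 members had an unadjusted p under 0.05 (20% of tested genes). The 3 were Nop16, Rrp1b and Ubtf, and in each every KO_cold library was above every WT_cold library (3.26% of tested genes). The outermost log2 differences of all 56 were -0.22 and 0.86. Beside them, 3 of 6 fibroblast and progenitor markers were higher in KO in the cold, and 3 of 10 brown adipocyte markers were lower: Pparg (-0.47), Plin1 (-0.41) and Elovl3 (-1.42). At RT, 2 of these 6 markers were higher in KO and 1 of these 10 was lower. The median difference of the fibroblast and progenitor markers was 0.28 at RT and 0.32 in the cold. All 12 skeletal muscle markers were lower in KO in the cold (median -2.95), with 0 called by edgeR and 4 by DESeq2. All 5 erythrocyte markers were lower too (median -0.43), with 0 called by either. With the muscle mean as a term in the fit, the 3 members were still called. The part of the other marker lists in the differences of the 3 members was not tested. Without WT_cold replicate 5, Mphosph10 was also called, as lower in KO (adjusted p = 0.0382).

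Nop16 (chromosome 13, 54584185 to 54590090), a nucleolar 60S assembly protein, differed the most. It had 16.8, 16.1, 16.4, 16.6 and 15.8 CPM in WT_RT and 22.99, 24.4, 26.2, 21.3 and 23.1 CPM in WT_cold. In KO it had 19.6, 17.1, 17.4, 19 and 19.2 CPM at RT and 48.5, 43.5, 39.96, 36.7 and 45.1 CPM in the cold. No 2 of the 4 groups overlapped: the KO_RT libraries lay just above the WT_RT libraries (0.17, adjusted p = 0.252, not called), and the KO_cold libraries stood well above all others. The cold change was 0.53 ± 0.07 in WT (1.44-fold, adjusted p = 1.52e-06) and 1.21 ± 0.07 in KO (2.32-fold, adjusted p = 3.76e-11). The difference between these changes was 0.68 ± 0.10 (95% interval 0.47 to 0.89, adjusted p = 0.00151), the only interaction called among the members, where 0.742% of tested genes had a called one, 0.427% higher and 0.315% lower. Between the genotypes in the cold it differed by 0.86 ± 0.07 (adjusted p = 6.13e-08). Of the tested genes near it, Cltb lies 2311 bases away on the same strand and was also higher in KO in the cold (0.28, adjusted p = 0.00969), without a called interaction (0.27, adjusted p = 0.26). Higd2a, 117 bases away on the other strand, differed by 0.02 (adjusted p = 0.905). Arl10, 3057 bases away on the other strand, differed by 0.33 (adjusted p = 0.145, not called), also without a called interaction (0.31, adjusted p = 0.622).

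Rrp1b (chromosome 17, 32036100 to 32062865), a 60S assembly protein, had 7.22, 5.77, 6.25, 6.58 and 6.62 CPM in WT_RT and 6.81, 7.81, 8.67, 7.34 and 7.39 CPM in WT_cold. In KO it had 6.54, 6.18, 6.79, 6.56 and 7.99 CPM at RT and 9.55, 10.4, 11.9, 10.5 and 11.7 CPM in the cold. The WT groups overlapped and the KO groups did not. The difference in the cold was 0.51 ± 0.09 (95% interval 0.32 to 0.70, adjusted p = 0.000651), and the interaction, 0.44 ± 0.13, was not called (adjusted p = 0.137). Its cold change was 0.67 ± 0.09 in KO (adjusted p = 1.64e-06) and 0.23 ± 0.09 in WT (adjusted p = 0.035). The WT call was lost without WT_RT replicate 2 (adjusted p = 0.0996), without WT_cold replicate 3 (0.0692), with no filter on low counts (0.06) and with the muscle mean in the fit (0.124).

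Ubtf (chromosome 11, 102304560 to 102319742) had 80.8, 85.8, 83.3, 86.1 and 76.9 CPM in WT_RT and 95.3, 99.9, 85.98, 97.04 and 84.4 CPM in WT_cold. In KO it had 95.2, 80.5, 84.3, 78.5 and 85.3 CPM at RT and 108, 112, 118, 106 and 114 CPM in the cold. The WT groups overlapped and the KO groups did not. It was higher in KO in the cold by 0.27 ± 0.06 (95% interval 0.14 to 0.40, adjusted p = 0.00558), and the interaction, 0.23 ± 0.08, was not called (adjusted p = 0.296). Its cold change was 0.16 ± 0.06 in WT (adjusted p = 0.023), a call lost with the muscle mean in the fit (0.126), and 0.40 ± 0.06 in KO (adjusted p = 6.94e-06).

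**Figure D5:**
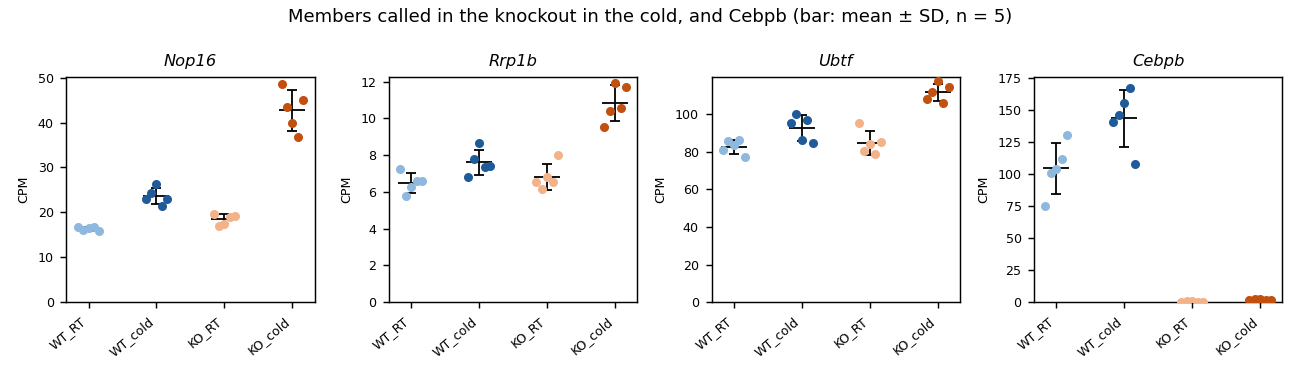
CPM in each library (points) with the mean ± SD over 5 libraries (bars) for Nop16, Rrp1b, Ubtf and Cebpb in the 4 groups. The KO_cold libraries of Nop16, Rrp1b and Ubtf lie above every WT_cold library, and Cebpb is near 0 in both KO groups.

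Across all members, the cold change in KO minus that in WT was above 0 in 42 of 56, against 7581 of 15233 tested genes, with a median difference of 0.09 on the log2 scale. Of these only Nop16 passed the test of the difference, and 5 members had an unadjusted p under 0.05 (10.1% of tested genes). The median difference was 0.02 without WT_RT replicate 4 and WT_cold replicate 5, and 0.05 with the muscle mean in the fit. Of the wider lists, Ruvbl2, an ATPase of snoRNP assembly, was lower in KO in the cold (-0.78, adjusted p = 1.93e-06) with a called interaction (-0.53, adjusted p = 0.0265). Also lower in KO in the cold were Gtf3c3, of a polymerase III factor (-0.22), Rsl1d1, a 60S factor (-0.19), and the MYC network genes Mxd4 (-0.29) and Mlx (-0.52).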

How the data were processed

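Poly(A) RNA of mouse brown adipose tissue was read in 20 libraries, made with a stranded mRNA kit per the labels' protocols. The submitters' processing notes list Trim Galore 0.6.0, STAR 2.7.8a and the build GRCm38.p6; the annotation release was not given in the sources used here. The authors deposited raw counts per gene for each library, with both strands together and each strand apart. The reverse strand held 94.5% to 95.7% of stranded counts and was used. Entries that name no gene were left out: multimapping reads took 18.3% to 21.4%, unmapped reads 3.86% to 5.66%, reads outside genes 3.14% to 4.55% and ambiguous reads 1.02% to 1.16%.

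Counts were analysed with edgeR 4.0.16 in R 4.3.3. Genes were kept by filterByExpr (count minimum 10, total minimum 15), TMM factors scaled the libraries, and all 4 groups entered a single robust quasi-likelihood model with 16 residual degrees of freedom. From it came the cold change in each genotype, the KO minus WT difference at each temperature, and the interaction, which is the cold change in KO minus that in WT. Benjamini-Hochberg adjustment ran over all 15233 genes, with a threshold of 0.05. The SE is the absolute log2 change divided by the square root of the test's F statistic. Intervals of 95% used this SE and a t distribution with 16 degrees of freedom, so they can differ slightly from the test. Mean log2 CPM used a prior count of 2. Library pairs within a group differed by 15.2 to 107.7 times counting error (chi-square per degree of freedom), so none was counted as a repeat. The scripts were tested on simulated data.

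The members, the lists of other genes and markers, and the tests were chosen with earlier results of these data known. Members given library by library were the 3 called with the largest rise and the 3 with the largest fall in each comparison, the member of highest mean CPM in each role, and Ubtf, Rrn3, Polr1a and Fbl. Of the other lists, the genes named come from the 2 called with the largest rise and the 2 with the largest fall in the cold, and those called in a knockout comparison. Other members illustrate their role. Alternatives were RLE scaling, no filter, DESeq2 1.42.0, a block for replicate number, a fit of just the groups in question, counts from both strands, no mitochondrially encoded genes, a skeletal muscle term, and libraries left out. Protein sequences were not used here.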

Additional observations from a re-analysis of the deposited data

Results flagged for a closer look

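In 3 of 68 groups of 5 libraries, tested over the 16 members given library by library and the mean of all 56, 1 library stood apart from the rest of its group by Dixon's test at the 95% level (critical value 0.71), where chance alone sets apart about 1 in 20. Gnl3 was at 31.5 CPM in WT_RT replicate 4, where the other libraries of the group had 24.3 to 25.3 CPM; that library also had the lowest skeletal muscle signal of WT_RT, and the part this played was not tested. Ncl was at 257 CPM in KO_cold replicate 5, where the others had 287 to 289 CPM. Fbl was at 16.3 CPM in WT_cold replicate 3, where the others had 13.0 to 13.5 CPM. No call in the cold of these 3 genes was lost with any library left out.

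Nop16 had a larger cold response in KO than in WT by the interaction test of edgeR, by 0.68 on the log2 scale (adjusted p = 0.00151). All 5 KO_cold libraries were above all 5 WT_cold libraries. The difference ranged from 0.64 to 0.74 and was called in each alternative run for the interaction; a fit of just the groups in question was not among them, since the interaction uses all 4.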

How the results depend on the processing

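No called result changed direction. The median difference of the members between KO and WT in the cold lay near 0 and did change sign. It was 0.01 in the main fit and -0.01 without WT_cold replicate 5. Of the counts of members, the 46 that rose in WT and the 47 in KO ranged over 44 to 47 and 46 to 48 when libraries were left out singly, and the 2 that fell over 2 to 2 and 2 to 3. With skeletal muscle as a term, 1 member fell in WT and 1 in KO, since Imp3 was lost. With WT_RT replicate 4 and WT_cold replicate 5 left out, 1 member was lower in KO in the cold, and with each library left out the count ranged from 0 to 1, the 1 being Mphosph10 without WT_cold replicate 5. With the replicate number as a block, 46 members rose in KO, because Wdr75 was lost (adjusted p = 0.0778), and no other call of a member changed. The numbers were taken to mark no pairs: correlations of same-numbered libraries ran from -0.18 to 0.27 over 20 pairs, 7 of them over 0.1, and 5 libraries correlated best with their own number. The call of Wdr75 in KO was also lost with no filter (0.112) and with the muscle term (0.226), and Nol6 and Utp6 in WT and Ddx10 and Utp6 in KO were lost with the muscle term. Leaving out 1 library at a time brought calls in KO for Polr1b, Nop10, Nat10 and Nhp2, with adjusted p of 0.0217 to 0.047. Over all genes, DESeq2 called 629 genes for the knockout at RT and 269 for the interaction, where edgeR called 411 and 113. Depth was 27.07 M gene counts or more, of which mitochondrially encoded genes held 28.8% to 36.0%. The lowest group mean of a member was 4.36 CPM, for Noc4l in WT_cold, so low counts limit most members little. Noc4l had a coefficient of variation of 28.3% in KO_RT. Rrp1b was the lowest per kilobase of annotated exon. P-values below the threshold in 1 genotype alone do not show a difference between genotypes.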
